A study of Mus musculus with 8 samples.

Results

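Mouse neural stem and progenitor cells that overexpress the transcription factor NFIA were compared with control cells over both neurosphere passages, with the arrays joined into 4 pairs. The members are all 8 samples of the series: the 4 titled NFIA_OE and the 4 titled CT. A pair is an NFIA array and the control array of the same passage and replicate number. Of 13811 genes tested, 4815 (34.9%) had the same sign in all 4 pairs, 2070 of them higher and 2745 lower in NFIA cells. Values are on a log2 scale, and a level of 0 is the 75th percentile of that array's signals.

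NFIA belongs to the nuclear factor I (NFI) family, whose members bind DNA as dimers at the palindrome formed by TTGGC and its reverse complement. In the developing brain and spinal cord NFIA is switched on as progenitors turn from making neurons to making glia. It is known for opening astrocyte genes to gp130-JAK-STAT signalling, for acting with SOX9 on early glial genes, and for being induced by Notch signalling.

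The cells were grown from mouse embryonic stem cells as neurospheres, floating balls of neural progenitors, in cultures that mixed NFIA and control cells, and the 2 kinds were separated by fluorescence-activated cell sorting. Control and NFIA cells of primary neurospheres (passage 0, day 6 after embryoid bodies) form the groups PN_control and PN_NFIA with 2 arrays each. Control and NFIA cells of secondary neurospheres (passage 1, day 12) form SN_control and SN_NFIA with 2 arrays each. The labels name a WT line and an NFIA line but give neither the promoter that drives NFIA, nor the number of clones, nor whether equal numbers mark a shared culture, so p-values measure the spread between these samples, which may be technical.

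Labels and files conflict, and the results rest on how this was settled. The source name of all 4 control samples is the NFIA line, and the NFIA samples of passage 0 pair 1 and passage 1 pair 2 have the WT line there. Groups were taken from the titles. Each column of the authors' value table correlated at 0.9998 or more with 1 scanner file and at 0.335 or less with the rest, and for 7 of 8 columns that file is deposited under another sample. Arrays were assigned by the value table. With arrays taken as the files are attached, limma called 0 genes (248 at an unadjusted p under 0.05), and 136 of the 288 called genes tested in that assignment kept their sign. With groups taken from the source names, limma called 0 genes (312 at an unadjusted p under 0.05) and 2 of 344 called genes kept their sign. By the value table, NFIA arrays lie in slide columns 3 and 4 and control arrays in columns 1 and 2, and passage 0 in row 1 and passage 1 in row 2, so position cannot be told apart from the groups.

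Between 45.4% and 56.4% of spots on an array were well above background, and the number of arrays limits the precision. The 8 neural stem cell markers Sox1, Sox2, Nes, Pax6, Msi1, Prom1, Fabp7 and Hes5 were well above background on all 8 arrays. So were the 5 neuronal and the 7 pluripotency markers. Of the blood and microglia markers, Csf1r was well above background on all 8 arrays, Hbb-bh1 on 3, and Ptprc, Aif1 and Cx3cr1 on 0. In bulk RNA of this kind, fewer cells of a type and less RNA per cell cannot be told apart.

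The genes that went one way in every pair differed in size between the directions. More genes were lower than higher in all 4 pairs, 19.9% against 15% of those tested, but the higher ones were further from 0. Their median difference was 0.77, against -0.42 for the lower ones. Of the higher genes, 148 were not well above background on any control array. Of the lower ones, 16 were not well above background on any NFIA array. The sizes of these genes rest on dim signals, and their part in the contrast was not tested. At least 1 on the log2 scale in every pair was reached by 264 higher genes (1.91%) and by 15 lower genes (0.109%). At 2 in every pair the counts were 49 and 0, and at 3 they were 11 and 0. The median over all genes was -0.05, and the share of genes higher in NFIA cells was 43.7% and 43.1% in the passage 0 pairs and 49.4% and 48.8% in the passage 1 pairs. The sign rule admits very small values. Slc25a11 lay just inside it, at -9.1e-05 in passage 0 pair 1, and Gpr108 just outside, with 0.09, 0.12 and 0.10 in 3 pairs and -0.00014 in passage 1 pair 2.

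**Figure D1:**
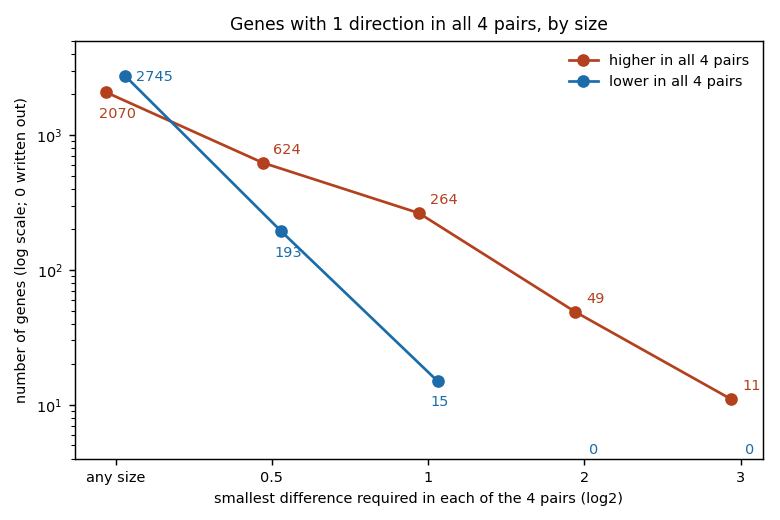
Number of genes (log scale) that were higher (red) or lower (blue) in NFIA cells in all 4 pairs, by the smallest difference required in each pair on the log2 scale. Lower genes are more numerous at any size, 2745 against 2070, and fewer at 1 in each pair, 15 against 264. Of the 2070 higher genes, 148 were not well above background on any control array, and 16 of the 2745 lower genes on any NFIA array.

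In the paired limma fit, 298 genes rose (2.16% of 13811) and 46 fell (0.333%) in NFIA cells at a Benjamini-Hochberg adjusted p under 0.05, together 2.49%. All 344 had the same sign in every pair. In 308 the NFIA and control arrays did not overlap in either passage, against 17.3% of all genes (8.61% higher and 8.69% lower). Both counts come from the values that the test used and favour agreeing pairs, so they are no separate evidence for the calls. The called genes that rose had a median difference of 1.88, a 3.69-fold change, and those that fell had a median of -1.09. Of the 298, 47 were not well above background on any control array, so that their size is only bounded from below. The counts depended on the pairs. With all 4 pairs, 3260 genes had an unadjusted p under 0.05. Without passage 0 pair 2 or without passage 1 pair 1, limma called 0 genes (1952 and 2410 at an unadjusted p under 0.05). Without passage 0 pair 1 it called 133 higher and 7 lower, and without passage 1 pair 2 it called 204 and 5. Without the pair term, 244 genes were called higher and 26 lower, and 195 of the 344 were called in both fits.

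The gene that was overexpressed came first as a check of the labels. Nfia levels on the control arrays were -1.30 and -0.30 at passage 0 and 1.00 and 0.61 at passage 1, and on the NFIA arrays -0.24, 0.93, 1.70 and 1.62. Each NFIA array was above its own control by 1.06, 1.23, 0.70 and 1.00, but both control arrays of passage 1 lay above PN_NFIA 1, and 1 of them above PN_NFIA 2. The mean rise was 1.00 ± 0.15 (SE, 4 pairs), 2-fold, with an adjusted p of 0.0453. Without the pair term the adjusted p was 0.172, and over 12 alternatives it ran from 0.0232 to 0.382. A second Nfia probe differed by 2.0, 2.11, 1.60 and 2.08. The files do not say whether either probe reads the transgene, the endogenous gene or both.

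The other members of the NFI family were higher in all 4 pairs too. Nfix, a paralog active in the same progenitors, rose by 2.83, 1.75, 1.84 and 1.76, a mean of 2.04 ± 0.23 (adjusted p = 0.0268, or 0.0802 without the pair term). Nfib differed by 0.91 ± 0.15 (adjusted p = 0.0519) and Nfic by 1.09 ± 0.21 (adjusted p = 0.0625), both short of the threshold. The paralogs share a conserved DNA-binding domain, and the probe sequences were not used here, so cross-hybridisation was not tested.

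Some genes that rose held copies of the NFI core motif TTGGCA before their start site. The promoter table of RefSeq (GRCm38.p6) holds 250 bases before the start for 10973 of the genes tested. The motif, searched on both strands, was found in 45 of 228 genes called higher (19.7%), in 3 of 34 called lower (8.82%), in 13.1% of the genes higher and 9.32% of those lower in all 4 pairs, in 10.3% of the genes tested and in 12.5% of all 27025 promoters. Among the 15 genes that rose by the most in their weakest pair, copies were not counted for Fgf1. Of the others, Myh8, Thrsp and Il33 held more than 1 copy, and their sequences are shown for that reason, 5′ to 3′ on the strand of the gene. Capitals mark the motif, TTGGCA on the printed strand or TGCCAA where it lies on the other. A match describes letters and shows no binding. The full palindrome, with 5 free bases between its arms, was in 0 of the 228 and in 11 of all 27025 promoters (0.0407%).
Myh8, chr11:67276874-67277123, plus strand: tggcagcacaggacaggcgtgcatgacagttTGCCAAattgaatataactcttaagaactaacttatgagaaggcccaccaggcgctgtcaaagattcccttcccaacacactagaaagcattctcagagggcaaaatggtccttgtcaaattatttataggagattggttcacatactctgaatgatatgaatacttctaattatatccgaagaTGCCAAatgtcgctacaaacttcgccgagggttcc
Thrsp, chr7:97417551-97417800, minus strand: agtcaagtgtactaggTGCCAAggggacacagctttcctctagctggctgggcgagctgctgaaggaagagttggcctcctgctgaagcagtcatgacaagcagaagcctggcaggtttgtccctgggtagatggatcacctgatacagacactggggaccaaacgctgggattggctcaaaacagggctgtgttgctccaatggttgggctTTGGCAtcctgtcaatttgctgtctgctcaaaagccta
Il33, chr19:29924863-29925112, plus strand: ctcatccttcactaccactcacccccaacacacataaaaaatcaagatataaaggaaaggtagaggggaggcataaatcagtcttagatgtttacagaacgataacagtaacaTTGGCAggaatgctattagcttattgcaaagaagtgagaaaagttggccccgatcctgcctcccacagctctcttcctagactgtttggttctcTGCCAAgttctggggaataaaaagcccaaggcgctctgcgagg
The copies begin 219 and 35 bases before the start of Myh8, 234 and 38 before that of Thrsp, and 137 and 43 before that of Il33.

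Of the 15 genes that rose most by their weakest pair, 14 were also called without the pair term. Myh8, a myosin heavy chain of developing skeletal muscle, had the highest weakest pair of all genes. Its levels on the control arrays were -4.14, -2.96, -1.60 and -0.51 (passage 0, then passage 1), and on the NFIA arrays 1.54, 2.63, 4.61 and 4.72. All NFIA arrays lay above all control arrays, and each pair rose by 5.23 to 6.22. The mean rise was 5.68 ± 0.19 (adjusted p = 0.00482), 51.3-fold. A second Myh8 probe, dim on every control array, was also higher in every pair.

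Secreted proteins formed 1 class of this group. Ecrg4, a secreted peptide precursor of choroid plexus and ependyma, had control levels of -4.18, -6.25, -2.42 and 0.91 and NFIA levels of 1.13, 2.57, 4.45 and 5.03. It was well above background on 2 of 4 control arrays and rose by 6.28 ± 0.77 (adjusted p = 0.0297), with pairs from 4.12 to 8.82. Wif1, an extracellular Wnt inhibitor, had control levels of -3.73, -1.52, -1.26 and -0.60 and NFIA levels of 0.94, 2.61, 3.09 and 2.89. Its rise of 4.16 ± 0.22 was 17.9-fold (adjusted p = 0.0122), and no NFIA array fell within the control range. Rbp4, the plasma carrier of retinol, went from -0.08, -0.54, -1.54 and 0.34 on control arrays to 2.96, 2.69, 3.56 and 4.84 on NFIA arrays. The rise was 3.97 ± 0.39 (adjusted p = 0.0226), larger in both pairs of passage 1 (5.10 and 4.50) than in those of passage 0 (3.04 and 3.23).

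Il33, an alarmin cytokine that astrocytes make in the brain, rose by 4.11 ± 0.30 (adjusted p = 0.0217) and was well above background on 1 control array. Fgf1, a fibroblast growth factor without a signal peptide, rose by 3.98 ± 0.41 (adjusted p = 0.0236). Ccdc80, an extracellular matrix protein, rose by 4.73 ± 0.43 (adjusted p = 0.0217). Thbs2, a thrombospondin of the kind astrocytes release at forming synapses, rose by 3.76 ± 0.33 (adjusted p = 0.0217). Thbs2 was well above background on 1 control array, Ccdc80 on 1 and Fgf1 on 2, so these sizes rest in part on dim signals.

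Membrane proteins were the next class. Itga7, the laminin receptor alpha 7 integrin, had control levels of -2.57, -3.43, -2.06 and 0.51 and NFIA levels of 0.75, 0.82, 2.71 and 3.80. It rose by 3.91 ± 0.30 (adjusted p = 0.0217), 15-fold, and was well above background on all 8 arrays. Entpd2, an ectonucleotidase of adult neural progenitors, rose by 3.54 ± 0.30 (adjusted p = 0.0217), but not without the pair term (0.0758, and 0.0094 to 0.21 over 11 alternatives). Kcnt1, a sodium-activated potassium channel, was not well above background on any control array and rose at least 9.59-fold (adjusted p = 0.0217). Abca8a, an ATP-binding cassette transporter, likewise rose at least 2.42-fold (adjusted p = 0.0224).

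The enzymes and regulators of the group were Thrsp, Fmo1 and Serpinb5. Thrsp, a lipogenic nuclear protein induced by thyroid hormone, rose by 3.69, 4.77, 4.46 and 4.31, a mean of 4.31 ± 0.21 (adjusted p = 0.0122), and was well above background on 1 control array. Fmo1, a flavin-containing monooxygenase, rose by 3.25 ± 0.18 (adjusted p = 0.0122) with pairs from 2.76 to 3.66, and was well above background on 1 control array. A second Fmo1 probe differed by 2.70 and 2.81 at passage 0 and by 0.34 and 0.46 at passage 1. Serpinb5, an epithelial serpin, was dim on all control arrays and rose at least 6.15-fold (adjusted p = 0.0303).

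**Figure D2:**
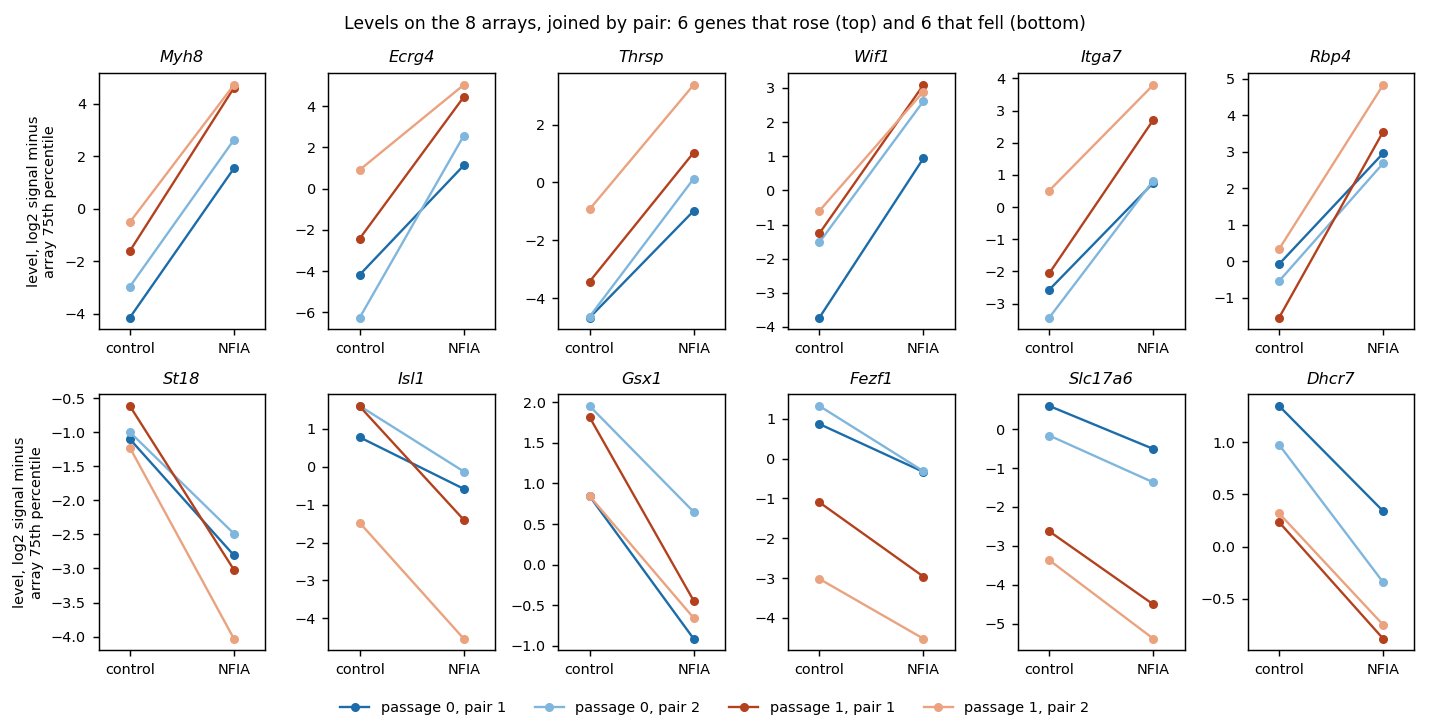
Levels (log2 signal minus the array's 75th percentile, 1 point per array) of 6 genes that rose and 6 that fell, with a line joining the control and NFIA array of each of the 4 pairs; vertical scales differ between panels. Every line goes the same way within a panel, while starting levels differ between pairs. They differ by more than the mean change for Isl1, Fezf1, Slc17a6, Ecrg4 and Itga7.

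The 15 genes that fell most by their weakest pair included 5 transcription factors and several neuronal membrane proteins, and their largest weakest pair was 1.49 against 5.23 among the genes that rose. St18, a zinc finger factor of newborn neurons, had control levels of -1.1, -1.0, -0.62 and -1.23 and NFIA levels of -2.81, -2.49, -3.02 and -4.03. All NFIA arrays were below all control arrays, and the fall of -2.10 ± 0.26 was 4.29-fold (adjusted p = 0.0298). Isl1, a LIM homeobox factor of motor and sensory neurons, was at 0.78, 1.60, 1.59 and -1.48 in controls and at -0.58, -0.13, -1.40 and -4.54 in NFIA cells. The second control array of passage 1 was as low as the NFIA arrays, but every pair fell, by 2.29 ± 0.35 on average (adjusted p = 0.0463).

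Gsx1, a homeobox factor of ventral forebrain and dorsal spinal progenitors, fell by 1.71 ± 0.20 (adjusted p = 0.027) and Fezf1, a forebrain zinc finger repressor, fell by 1.55 ± 0.16 (adjusted p = 0.0236). Tal2, a midbrain helix-loop-helix factor, fell by 1.5 ± 0.24 (adjusted p = 0.0498). Fgf15, a growth factor of early neural progenitors, had control levels from -0.81 to 3.43 and fell by 1.75 ± 0.28 (adjusted p = 0.0471). The control levels of Fezf1, Tal2 and Fgf15 spread over more than their mean change.

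Slc17a6, the vesicular glutamate transporter VGLUT2, went from 0.60, -0.16, -2.63 and -3.37 to -0.51, -1.37, -4.51 and -5.39, a fall of 1.55 ± 0.21 (adjusted p = 0.0372). Chrnb2 and Chrna4, the subunits of the main brain nicotinic receptor, fell by 1.34 ± 0.19 and by 1.19 ± 0.17 (adjusted p = 0.0398 and 0.04). Ralyl, an RNA-binding protein, fell by 1.29 ± 0.16 (adjusted p = 0.0298), though 1 of its 2 other probes was positive in 1 pair, and Ecel1, a neuronal endopeptidase, fell by 1.42 ± 0.22 (adjusted p = 0.0464). Hepacam2, an adhesion molecule, fell by 1.92 ± 0.25 (adjusted p = 0.034), and B4galnt4, a glycosyltransferase, fell by 1.09 ± 0.14 (adjusted p = 0.0307). Hepacam2 was well above background on 1 NFIA array and 3 control arrays, and Slc17a6 on 2 NFIA arrays. The sizes of these 2 falls rest in part on dim signals. Dhcr7, the last enzyme of cholesterol synthesis, fell by 1.01, 1.32, 1.12 and 1.07, a mean of -1.13 ± 0.13 (adjusted p = 0.0275). Of the 15 genes, St18, Ralyl, Dhcr7 and the Y-linked Eif2s3y were also called without the pair term, and the other 11 were not.

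Astrocyte genes were mostly higher in NFIA cells. Of 25 tested, 17 were higher and 0 lower in all 4 pairs, against 15% and 19.9% of all genes, with a median of 1.44 against -0.05. The 5 that rose (2.16% of all genes) were Aldoc, Sparcl1, Clu, Aldh1l1 and Ndrg2, of which only Sparcl1 was also called without the pair term. The last 2 lie outside the rule for named genes and were chosen after their values were seen.

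Aldoc, the aldolase of astrocytes, had control levels of 2.58, 2.99, 3.53 and 6.02 and NFIA levels of 4.84, 6.10, 7.21 and 8.35. The second control array of passage 1 reached the NFIA range of passage 0, and the pairs rose by 2.26, 3.12, 3.69 and 2.33 (2.85 ± 0.28, adjusted p = 0.0226). Sparcl1, a secreted synapse-promoting protein, rose by 3.08 ± 0.42 (adjusted p = 0.038). Clu, which encodes the extracellular chaperone clusterin, rose by 2.48 ± 0.22 (adjusted p = 0.0217). Aldh1l1, a folate enzyme used as an astrocyte marker, rose by 1.77 ± 0.26 (adjusted p = 0.0463), and Ndrg2 rose by 1.86 ± 0.29 (adjusted p = 0.0464).

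The classical markers did not pass the test. Gfap, the intermediate filament of astrocytes, differed by 0.70, 0.82, 2.12 and 3.53 (adjusted p = 0.125). The probe used was well above background on 2 NFIA arrays and on no control array. Of its other 2 probes, 1 was well above background on 1 control array, and they were negative in 3 and in 1 of the pairs. Aqp4, the water channel of astrocyte endfeet, differed by 1.78 ± 0.40 (adjusted p = 0.0857), and Slc1a3, the glutamate transporter GLAST, by 1.44 ± 0.28 (adjusted p = 0.0662). S100b, a calcium-binding protein, was higher by 3.89, 4.54 and 5.12 in 3 pairs and lower by -0.92 in passage 1 pair 2, whose control array stood at 5.06 against -6.54 to -4.26 on the other control arrays.

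A list of 4 early glial genes holds targets of SOX9 with NFIA and Sox9 itself. Mmd2, a membrane protein, rose by 1.71 ± 0.24 (adjusted p = 0.0439, or 0.233 without the pair term). Apcdd1, a Wnt antagonist of the membrane, differed by 0.90 ± 0.18 (adjusted p = 0.0683) and Zcchc24, a zinc finger protein, by 1.65 ± 0.35 (adjusted p = 0.0782), both with the same sign in all 4 pairs. Sox9 differed by -0.16, 0.42, 0.57 and 1.14 (adjusted p = 0.274).

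**Figure D3:**
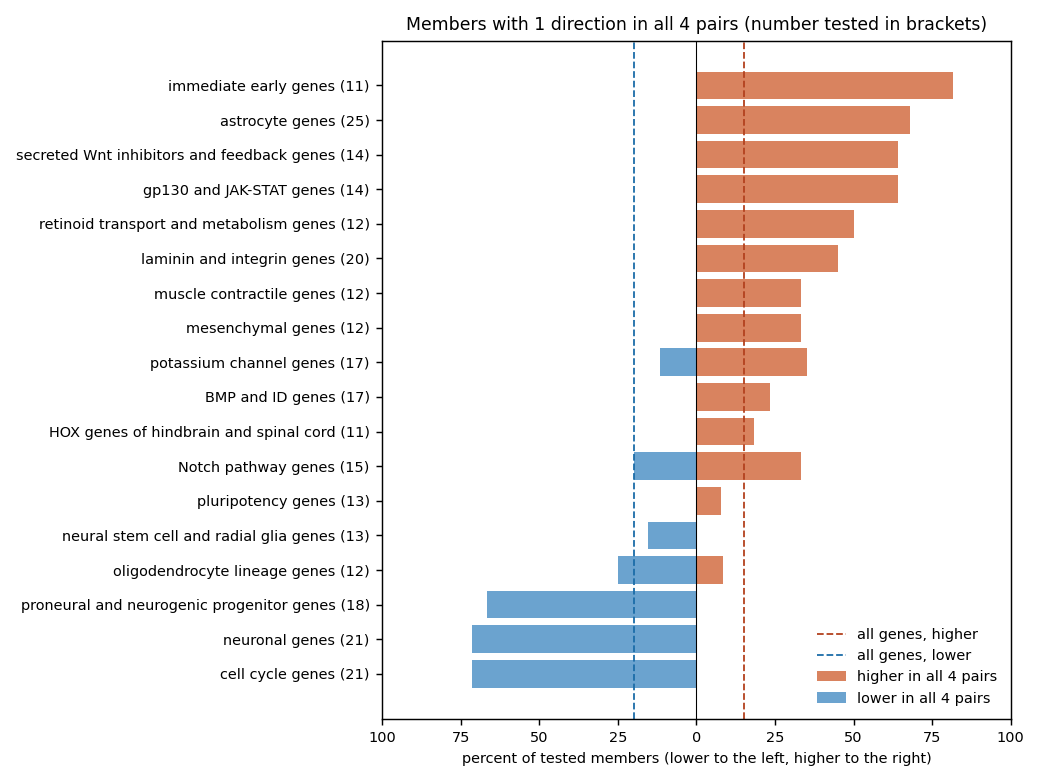
Share of the tested members of each of the 35 gene lists that has at least 10 tested members that was higher (red, right) or lower (blue, left) in NFIA cells in all 4 pairs; dashed lines give the share over all 13811 genes, 15% and 19.9%. Among the lists plotted, immediate early and astrocyte genes lie furthest to the right, and neuronal, proneural and cell cycle genes furthest to the left.

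Neurogenic genes were mostly lower in NFIA cells. Of 18 proneural and neurogenic progenitor genes tested, 12 were lower and 0 higher in all 4 pairs (19.9% and 15% of all genes), with a median of -0.86. The 2 that fell (0.333% of all genes) were St18 and Dll3, a Notch ligand that acts within the cell that makes it. Dll3 levels were 3.19, 3.95, 3.39 and 2.83 in controls and 2.30, 2.61, 1.58 and 1.42 in NFIA cells, with no overlap between the groups, a fall of 1.36 ± 0.19 (adjusted p = 0.0374). Neurog2, a proneural helix-loop-helix factor, differed by -1.17 ± 0.19, just short of the threshold (adjusted p = 0.0501), and the Notch ligand Dll1 by -0.76 ± 0.26 (adjusted p = 0.165).

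Of 21 neuronal genes, 15 were lower and 0 higher in all 4 pairs (19.9% and 15% of all genes), with a median of -1.02. The 3 that fell (0.333% of all genes) were Slc17a6, Isl1 and Scg2, a secretory granule protein. Scg2 fell by 0.90 ± 0.13 (adjusted p = 0.0444). None of the 3 was called without the pair term (0.0685 for Scg2, the lowest). Tubb3, the neuronal tubulin, differed by -0.42, -0.66, -2.60 and -1.24 (adjusted p = 0.142), and Dcx, a microtubule protein of migrating neurons, by -0.65 ± 0.20 (adjusted p = 0.138).

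Stem cell and oligodendrocyte genes held no call by limma, against 2.49% of all genes called and 3260 of 13811 at an unadjusted p under 0.05. Of 13 neural stem cell and radial glia genes, 0 were called (1 at an unadjusted p under 0.05). In all 4 pairs, 0 were higher and 2 lower (15% and 19.9% of all genes). The 2 were Cdh2, the neural cadherin, at -0.53 ± 0.17, and Nes, the intermediate filament nestin, at -0.28 ± 0.13. Sox2, a stem cell factor, differed by 0.14 ± 0.17 and Pax6, a dorsal progenitor factor, by -0.46 ± 0.32, neither with 1 sign. Of 12 oligodendrocyte lineage genes, 0 were called (3 at that unadjusted p) and 4 had 1 sign (34.9% of all genes). The 4 included the myelin genes Mog at 0.57 ± 0.15 and Mbp at -1.28 ± 0.38. Olig2, the lineage's helix-loop-helix factor, differed by -0.82 and 0.07 at passage 0 and by 1.41 and 1.01 at passage 1, and Pdgfra, the precursor cell's receptor, by 1.28 and 1.37 and then by -0.59 and -0.63. Of 8 early progenitor genes, 0 were called (3 at that unadjusted p) and 4 were lower in all 4 pairs (19.9% of all genes). The 4 were led by Lin28b, a blocker of let-7 processing, at -1.62 ± 0.38 (adjusted p = 0.0924). The mean level of the 5 neuronal markers was 4.19 to 4.23 on control and 3.79 to 3.89 on NFIA arrays at passage 0, and 3.49 to 4.43 and 3.12 to 3.15 at passage 1, and its part in the glial and neuronal differences was not tested.

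**Figure D4:**
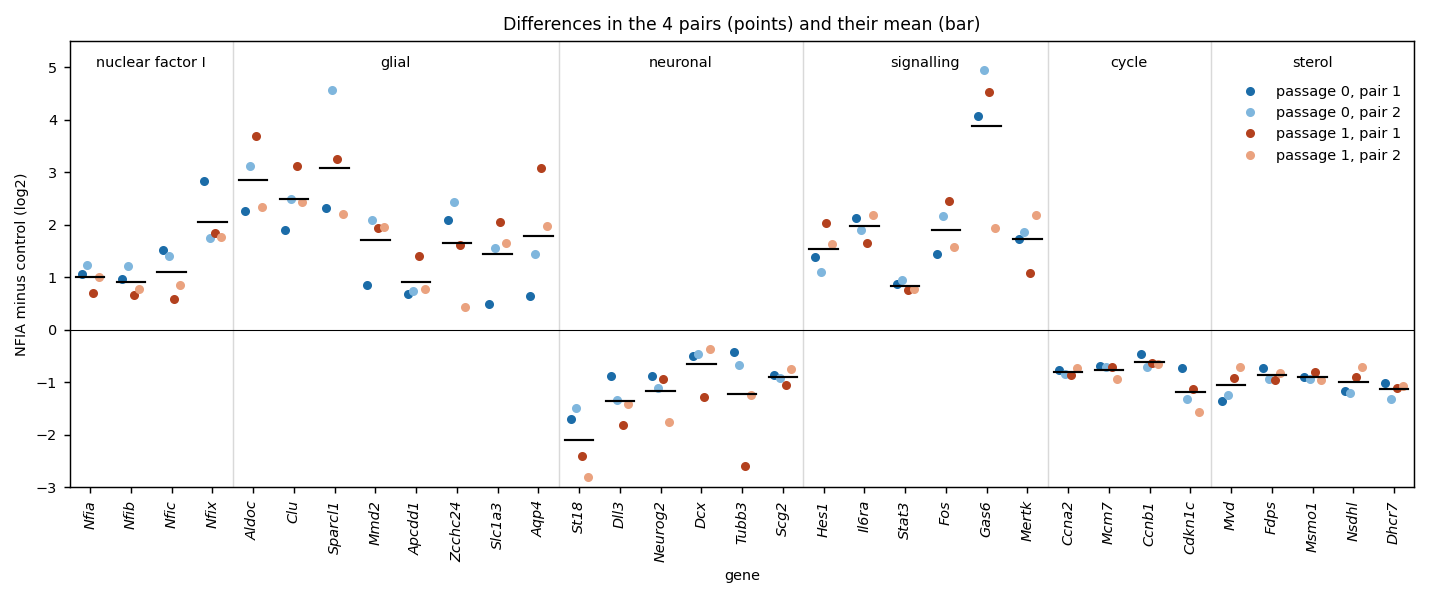
NFIA minus control difference (log2) in each of the 4 pairs (points) and the mean of the pairs (bar) for 33 genes in 6 groups. The nuclear factor I, glial and signalling genes plotted are above 0 in every pair, and the neuronal, cell cycle and sterol genes below 0 in every pair. Each gene is shown by its brightest probe, and other probes of Dcx and Aqp4 had the other sign in some pairs. The genes were picked for display, so their uniform signs are no result. Genes with mixed signs, such as S100b, Sox9, Hes5, Dll1 and the sterol enzyme Acat2, are not plotted. Cdkn2a and Cdkn2b, CDK inhibitors that were higher in every pair, are left out too.

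Genes of the signalling pathways that act on gliogenesis were examined next. Among 15 Notch pathway genes, Hes1, a repressor that Notch induces, rose by 1.39, 1.1, 2.04 and 1.63 (1.54 ± 0.19, adjusted p = 0.0303), and Dll3 fell. Over all genes, 2.16% rose and 0.333% fell. In all, 5 of the 15 were higher and 3 lower in all 4 pairs (15% and 19.9% of all genes). Hes5, the other main Notch effector, differed by -0.79 and -0.33 at passage 0 and by 0.44 and 1.92 at passage 1. Mfng, a glycosyltransferase that tunes Notch, differed by -1.40 ± 0.28 (adjusted p = 0.0708).

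Of 14 gp130 and JAK-STAT genes, 9 were higher and 0 lower in all 4 pairs (15% and 19.9% of all genes) and 2 rose (2.16%), with a median of 0.80. Il6ra, the interleukin 6 receptor subunit, had control levels of -4.13, -3.36, -2.96 and -2.88 and NFIA levels of -2.01, -1.46, -1.30 and -0.71. The groups did not overlap, and the rise of 1.97 ± 0.15 was 3.91-fold (adjusted p = 0.0217). Stat3, the transcription factor of the pathway, rose by 0.87, 0.96, 0.76 and 0.77 (0.84 ± 0.13, adjusted p = 0.0463), but not without the pair term (0.153, and 0.0244 to 0.373 over 12 alternatives). Cebpd, a target of STAT3, differed by 1.66 ± 0.32 (adjusted p = 0.0697).

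Of 17 BMP and ID genes, 1 rose (2.16% of all genes), and 4 were higher and 0 lower in all 4 pairs (15% and 19.9% of all genes). The 1 was Smad9, a receptor-regulated BMP transducer, which was dim on all control arrays and rose at least 1.21-fold (adjusted p = 0.0122). Id1, a BMP target, differed by 1.22 ± 0.36 (adjusted p = 0.132). Of 7 interferon response genes tested, 3 were higher and 1 lower in all 4 pairs (15% and 19.9% of all genes). Rsad2, an antiviral enzyme, rose at least 2.83-fold (adjusted p = 0.035), and the list's median of 0.51 turned to -0.13 over genes well above background on all 8 arrays.

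Of 11 immediate early genes, all 11 had a positive mean difference, 9 were higher in all 4 pairs (15% of all genes) and 4 rose (2.16%), with a median of 1.37. Fos and Fosb, subunits of the AP-1 factor, rose by 1.91 ± 0.22 (adjusted p = 0.0268) and by 1.37 ± 0.22 (adjusted p = 0.0484), and the stress factor Atf3 by 2.18 ± 0.26 (adjusted p = 0.0288). Atf3 was well above background on 2 control arrays, so its size rests in part on dim signals. Junb rose at least 1.13-fold from dim controls (adjusted p = 0.0268). Fosb was named after its values were seen. Fos levels overlapped between the groups (control from -0.92 to 3.17, NFIA from 1.25 to 4.74), and none of the 4 was called without the pair term.

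Secreted Wnt inhibitors and feedback genes were higher in all 4 pairs in 9 of 14 cases (15% of all genes) and lower in 0 (19.9%), and 3 rose (2.16%). Beside Wif1, Sfrp4 rose by 2.59 ± 0.27 (adjusted p = 0.0236) and Dkk2 by 1.39 ± 0.20 (adjusted p = 0.0427), and all 3 were called in both fits. Of the 5 TAM receptors and ligands, which mediate the uptake of dead cells, Gas6 and its receptor Mertk rose. Gas6 levels were 0.11, 0.26, 1.15 and 3.35 in controls and 4.17, 5.20, 5.68 and 5.29 in NFIA cells, a rise of 3.87 ± 0.51 (adjusted p = 0.0342), smallest in passage 1 pair 2 at 1.95. Mertk rose by 1.72 ± 0.21 (adjusted p = 0.0298). Of 12 retinoid genes, 6 were higher in all 4 pairs (15% of all genes), and Dhrs3, a retinal reductase, rose with Rbp4, by 2.71 ± 0.41 (adjusted p = 0.0464).

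Cell cycle genes were lower by small amounts. All 21 tested had a negative mean difference, 15 were lower in all 4 pairs against 19.9% of all genes, and the median was -0.48. Ccna2, the cyclin of S and G2 phase, was the 1 that fell (0.333% of all genes). It fell by 0.76, 0.84, 0.86 and 0.74 (-0.80 ± 0.12, adjusted p = 0.0464, or 0.0653 without the pair term). Mcm7, a subunit of the replicative helicase, differed by -0.76 ± 0.13 (adjusted p = 0.0547).

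Among 7 CDK inhibitors, 2 rose and 1 fell (2.16% and 0.333% of all genes). In all 4 pairs, 2 were higher and 2 lower (15% and 19.9% of all genes). The 2 products of adjacent loci rose: Cdkn2b by 3.26 ± 0.47 (adjusted p = 0.0441) and Cdkn2a by 1.78 ± 0.27 (adjusted p = 0.0463). Cdkn2b was well above background on 1 control array, so its size rests in part on dim signals. A second Cdkn2b probe differed by -0.15 and -0.42 at passage 0 and by 1.54 and 3.26 at passage 1. Cdkn1c, the imprinted inhibitor p57, had control levels of 5.95, 6.29, 5.24 and 4.36 and NFIA levels of 5.21, 4.97, 4.12 and 2.81. It fell by 1.18 ± 0.18 (adjusted p = 0.0463).

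Matrix, contractile, serpin and channel genes are given beside the shares over all genes, of which 2.16% rose, 0.333% fell, 15% were higher and 19.9% lower in all 4 pairs. Of 20 laminin and integrin genes, 9 were higher and 0 lower in all 4 pairs, and Itga7 and Lama5, a laminin alpha chain (1.73 ± 0.28, adjusted p = 0.0484), rose. Of 12 muscle contractile genes, 4 were higher and 0 lower in all 4 pairs, and Tnnt1, the slow skeletal troponin T (1.1 ± 0.15, adjusted p = 0.0344), rose beside Myh8. Of 9 serpins, Serpinb5, Serpinb1a (3.28 ± 0.33, adjusted p = 0.0233) and Serpine2 (1.80 ± 0.28, adjusted p = 0.048) rose. Serpini1, the neuronal serpin, fell by 0.84 ± 0.13 (adjusted p = 0.0464). Serpine2 was named after its values were seen. Of 17 potassium channel genes, Kcnt1 and Kcne1l (2.54 ± 0.23, adjusted p = 0.0217) rose, 6 were higher and 2 lower in all 4 pairs. A second Kcne1l probe differed by 0.50, 0.25, -0.77 and 1.77, and a second Serpini1 probe was positive in 1 pair.

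The medians of some lists differed in sign between the 2 passages. Pluripotency genes had medians of 1.24 and 0.48 in the pairs of passage 0 and of -1.68 and -1.58 in those of passage 1. Of 13, 1 had the same sign in all 4 pairs (34.9% of all genes). That 1 was Klf4, a factor also active outside stem cells, which rose by 1.33 ± 0.20 (adjusted p = 0.0464). Epithelial genes had medians of 1.77 and 1.02 and then of -1.90 and -2.53. Of 9, 0 went 1 way (34.9% of all genes) and 0 were called by limma (0 at an unadjusted p under 0.05). Mesenchymal genes had medians of 1.22 and 2.45 and then of 0.01 and -0.91, and 4 of 12 were higher and 0 lower in all 4 pairs (15% and 19.9% of all genes). Prrx1, a homeobox factor of mesenchyme and adult neural progenitors, was the 1 that rose (2.16% of all genes). It rose by 1.43, 2.29, 1.95 and 1.84 (1.88 ± 0.18, adjusted p = 0.0224).

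The mean level of the 8 mesenchymal markers ran from -1.05 to -0.62 on the control arrays of passage 0 and from 0.57 to 1.17 on the NFIA arrays there. At passage 1 it ran from 1.95 to 2.62 and from 1.71 to 2.04. That of the 7 endoderm markers was -4.12 to -4.06 and -2.71 to -0.95 at passage 0, and -3.61 to -3.52 and -3.78 to -3.58 at passage 1. Their part in the differences was not tested. In a test of whether the NFIA effect differed between passages, limma called 0 genes (1914 at an unadjusted p under 0.05), and 1947 genes (14.1%) were higher in both pairs of 1 passage and lower in both of the other. Of the 298 genes that rose, the effect was larger at passage 0 in 143 and at passage 1 in 155.

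The other lists are given beside the share of all genes that rose, 2.16%. Of 6 endoderm and yolk sac genes tested, Sox7 rose at least 1.47-fold (adjusted p = 0.0258). Of 6 choroid plexus and ependymal genes, Ecrg4 and Clic6, a chloride channel protein (3.21 ± 0.49, adjusted p = 0.0464), rose. Of the 7 choroid markers, Foxj1, Folr1 and Clic6 were well above background on all 8 arrays, Ttr and Aqp1 on 7, Ecrg4 on 6 and Kl on 0. Ttr, the transthyretin of choroid plexus and yolk sac, was at -4.16 and -3.41 on control and at -0.37 and -1.63 on NFIA arrays at passage 0, and at -3.35 and -3.05 and then -3.33 and -3.65 at passage 1. The mean level of the 7 choroid markers was -3.25 to -1.44 on control arrays and -1.12 to -0.85 on NFIA arrays, and their part in the result was not tested. No gene was called by limma in the lists that follow, against 2.49% of all genes. The count at an unadjusted p under 0.05 stands after each, against 3260 of 13811 over all genes. These were 11 HOX genes of hindbrain and spinal cord (2), 7 forebrain patterning genes (1), 7 DNA methylation genes (3), 6 neural crest genes (3), 3 blood and microglia genes (0), 3 endothelial genes (0) and 8 housekeeping genes (1). Gapdh, a glycolytic enzyme often used as a reference, was lower in all 4 pairs at -0.53 ± 0.17 (adjusted p = 0.15).

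Y-linked genes stood apart from the rest of the genome. Medians of the other 20 chromosomes lay between -0.09 and -0.01. Ddx3y, a helicase, was at 0.01, 0.22, 0.03 and 0.16 on the control arrays and at -1.03, -2.89, -4.53 and -4.51 on the NFIA arrays. Uty, a histone demethylase, was at -1.72, -1.14, -1.88 and -2.27 and at -2.40, -4.07, -6.27 and -6.10. Eif2s3y, a translation factor, fell by 1.37, 3.28, 4.05 and 3.39 (-3.02 ± 0.45, adjusted p = 0.0458). The adjusted p was 0.0664 for Ddx3y and 0.0777 for Uty with the pair term, and 0.0342 and 0.042 without it.

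The 4 NFIA arrays were below all 4 control arrays for each of these 3 genes, and PN_NFIA 1 was the least so. The groups taken from the titles, not those of the source names, separate these levels. The X-linked Xist was not well above background on any array and was not tested. Of 6 genes of chromosome Y tested, the multicopy Sly, Ssty1 and Gm20736 had positive means of 1.93 to 1.97, with a negative first pair and no call, and near-identical copies may share their probes. If the 2 kinds of cell come from separate lines, what else differs between those lines cannot be told apart from NFIA here.

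**Figure D5:**
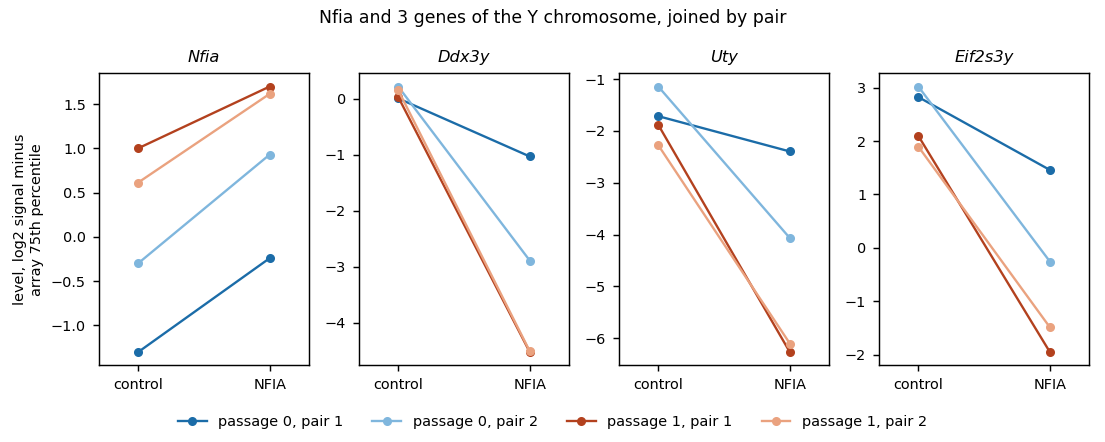
Levels (log2 signal minus the array's 75th percentile) of Nfia and of Ddx3y, Uty and Eif2s3y on each of the 8 arrays, with lines joining the arrays of a pair. Nfia goes up and the 3 Y-linked genes go down in every pair, with the smallest fall in passage 0 pair 1.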

How the data were processed

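Sorted cells were measured on 1-colour Agilent arrays, 8 arrays on 1 slide scanned on 1 day. Per the file headers, the deposited scanner files give each spot's intensity after background subtraction by Feature Extraction 10.5.1.1 (10.7.3.1 in the submitters' processing notes) and other values, flags of 0 or 1 for signal above background, saturation (0 spots) and outliers. The authors' deposited value table holds log2 values that the values show to be scaled to the 75th percentile and centred on probe medians (largest absolute median 0.000245); its direction is that of the scanner signals.

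Levels are log2 processed signals minus the array's own 75th percentile. A probe had to be well above background on both arrays of some group, and outlier flags left out 126 probes. RefSeq accessions (GRCm38.p6) named 26056 of 55681 probes; the array design used mm9. The brightest probe stood for a gene, and 3645 of 13811 genes had several.

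The test was limma (3.58.1, under R 4.3.3) with pair and NFIA terms (3 residual degrees of freedom), Benjamini-Hochberg adjusted over all genes, and values are means ± SE over 4 pairs. Within each passage, deviations of equally numbered arrays correlated at 0.444 and 0.483 over genes, the only value that 2 arrays a group can give. Named genes are the 15 that rose and the 15 that fell with the largest weakest pair among those called, 3 members of each of 35 lists with the smallest p among those with 1 sign, and a fixed set. The members and lists were chosen with earlier results of these data known.

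A gene dim on all control arrays is given as at least a fold, from control arrays raised to the lowest spot well above background. Alternatives covered background correction (normexp with an offset of 50, on median signals in place of the planned mean signals), normalization, filters, probe rule, pairing, array assignment and left-out pairs. The fit was tested on simulated data. Some results are not reported here.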

Additional observations from a re-analysis of the deposited data

Results flagged for a closer look

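Of 156 results examined, 11 had 1 pair set apart from the other 3 by Dixon's rule, which chance alone gives for about 1 in 20 such groups. Passage 0 pair 1 stood apart for Nfix at 2.83 (the others from 1.75 to 1.84), Mmd2 at 0.857 (1.93 to 2.09), Sox2 at -0.363 (0.29 to 0.34) and the median of the gp130 and JAK-STAT genes at 0.386 (0.72 to 0.79). Passage 0 pair 2 stood apart for Junb at 1.00 (1.53 to 1.57). Passage 1 pair 1 stood apart for Chrnb2 at -1.90 (-1.21 to -1.07), Apcdd1 at 1.41 (0.68 to 0.78) and Dcx at -1.27 (-0.49 to -0.37). Passage 1 pair 2 stood apart for Mcm7 at -0.936 (-0.71 to -0.68), Sox7 at 3.67 (2.24 to 2.38) and Otx2 at -0.148 (-0.50 to -0.45).

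In 7 results both pairs of passage 0 went one way and both of passage 1 the other. Passage 1 minus passage 0 was 1.74 for Hes5 and -1.94 for Pdgfra, and limma called neither difference. For list medians it was -2.49 for pluripotency, -2.22 for endoderm and yolk sac, -3.60 for epithelial, -0.920 for neural crest and 0.718 for HOX genes, and these differences between lists were not tested.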

How the results depend on the processing

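Against 298 genes called higher and 46 lower (3260 at an unadjusted p under 0.05), the limma counts were as follows. Background correction by normexp gave 393 and 112, quantile normalization 215 and 22, no filter on dim probes 61 and 0, and genes well above background on all 8 arrays 296 and 79. The mean of all probes gave 348 and 51, unnamed probes included 217 and 8, an adjusted p under 0.10 820 and 343, and a difference of at least 1 276 and 28. The fit with no replicate block gave 244 and 26, the pair as a random block 554 and 140, and crossed pairs as the block 0 and 0 (1664 at an unadjusted p under 0.05), with 1509 genes lower in all 4 crossed pairs in place of 2745. Leaving out a pair gave 0 to 204 higher and 0 to 7 lower. The attached scanner files gave 0 and 0, with 282 genes higher and 552 lower in all 4 pairs, and groups from source names gave 0 and 0. Without the pairs with a WT source name it was 0 and 0 (2365 at an unadjusted p under 0.05), with 4080 genes higher and 5119 lower in both remaining pairs. The authors' value table, tried after seeing the data, gave 313 and 46. Without the pair term, leaving out 1 array gave 33 to 328 higher and 0 to 24 lower, fewest without SN_NFIA 1. Where counts moved with a filter or fewer pairs, fewer or other genes and samples were tested, and otherwise the cause was not tested. Values turned sign for the interferon median (-0.13, all 8 arrays), for Hes5 without passage 1 pair 2 (-0.23, and up to 0.68 without another pair), and, without the pair term and 1 array, for Pdgfra (-0.016 to 1.00), Otx1 (-1.01 to 0.20), Olig2 (-0.13 to 0.96), Hes5 (-0.017 to 0.57) and Nes (-0.62 to 0.011), none of them called.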

Other observations

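Genes of cholesterol synthesis were lower as a group. They were noticed among the called genes, so the list of 20 enzymes was written after the values had been seen and has no test. All 20 had a negative mean difference, 17 were lower in all 4 pairs against 19.9% of all genes, the median was -0.83, and no member was higher in all 4. Mvd, the decarboxylase of the mevalonate steps, differed by -1.35, -1.24, -0.91 and -0.72 and fell by 1.05 ± 0.16 (adjusted p = 0.0464). Dhcr7, Nsdhl (-0.99 ± 0.15), Msmo1 (-0.89 ± 0.12), Lbr (-0.88 ± 0.14) and Fdps (-0.86 ± 0.13) fell as well, and of these 6 only Dhcr7 was called without the pair term. Over all genes, 0.333% fell. Every one of the 20 was well above background on all 4 control arrays.

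Other families were listed after their values had been seen, so their counts are no independent evidence. A list of small heat shock genes with their partner Bag3 had 8 genes tested, Bag3 included. Of these, 7 were higher in all 4 pairs (15% of all genes) and 5 rose (2.16%). Cryab, the lens and glial chaperone, rose by 2.33 ± 0.26 (adjusted p = 0.0268) and Bag3 by 1.64 ± 0.14 (adjusted p = 0.0217). Of 10 guanylate-binding protein and immunity-related GTPase genes, 6 were higher in all 4 pairs (15% of all genes) and 5 rose (2.16%), 3 of them from controls that were dim on every array, and 2 of the 5 were called without the pair term. Gbp4 rose by 2.81 ± 0.44 (adjusted p = 0.0468), with 1 control array well above background. Of 21 glutathione transferase and related detoxification genes, 13 were higher and 2 lower in all 4 pairs (15% and 19.9% of all genes). Nqo1, a quinone reductase, rose by 2.94 ± 0.36 (adjusted p = 0.0303), with 1 control array well above background. Ephx1, the microsomal epoxide hydrolase, rose by 2.43 ± 0.24 (adjusted p = 0.0226). Of 5 steroid and thyroid hormone receptor genes, 3 rose (2.16% of all genes). Nr3c1, the glucocorticoid receptor, rose by 1.42 ± 0.22 (adjusted p = 0.0464), Thrb at least 2.28-fold (adjusted p = 0.0288) and Nr3c2 at least 1.72-fold (adjusted p = 0.0373). The 4 metalloproteinase inhibitors Timp1 to Timp4 were higher in all 4 pairs (15% of all genes), and 3 of them rose (2.16%), by 0.82 to 1.68. Without the pair term, 2 of the 5 genes that rose in the small heat shock list were called, 3 of 5 glutathione genes, 2 of 3 receptors and 1 of 3 metalloproteinase inhibitors. Of 6 nicotinic receptor genes, 2 were lower and 2 higher in all 4 pairs (19.9% and 15% of all genes).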
